A study of Drosophila melanogaster with 4 samples.

Results

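The regions described here are the stretches of chromosome arm 2L, the left arm of the second chromosome of Drosophila melanogaster, that were enriched for the protein MBD-R2 in both of 2 chromatin immunoprecipitation sequencing (ChIP-seq) libraries. A replicate 1 region on 2L was kept when it overlapped a replicate 2 region by at least 1 bp, and 682 of the 742 replicate 1 regions on the arm met this rule (91.9%, where 90.4% of the whole replicate 1 list did), out of 4146 such regions in all. All libraries came from whole wild-type Oregon-R embryos aged 14 to 16 h. There were 2 ChIP samples made with the MBD-R2 antibody Q4167 and 2 input samples, numbered alike, and each ChIP sample had 1 deposited list of enriched regions with a start, an end and a score. Whole embryos mix many tissues, so a region is not assigned to a cell type, and it is not stated in the labels if the replicates came from separate collections. Spreads between the 2 lists (SD, n = 2) therefore measure only the difference between these libraries. The input libraries have no list of their own here and no background value was available from them. Read depth is not recorded in the lists and is unknown here.

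MBD-R2 is a subunit of the fly non-specific lethal (NSL) complex, which also contains the histone acetyltransferase MOF. The complex is known for binding near the promoters of active genes, above all of genes used in most cell types, on the X chromosome and on the autosomes. Fly chromosome arms alternate between stretches crowded with genes and stretches with few, and the sequence of 2L is numbered from the telomere side towards the centromere. Positions are those of FlyBase release 5. A genome sequence and annotation of that release were not used here, so genes and sequences are not given, and each region is named by its position.

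The share of replicate 1 regions with a counterpart in replicate 2 had a 95% Wilson interval of 89.7 to 93.7%. In replicate 2, 670 of 755 regions, 88.7% (86.3 to 90.8%), overlapped a replicate 1 region, where 84.7% of the whole list did. These overlaps chose the regions and are given as a description. The intervals cover counting error only, and regions along an arm are not independent of each other. Of the bases under a region in either list, 80.8% lay under regions of both, 2.30 of 2.84 Mb.

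The 60 replicate 1 regions that had no counterpart were narrow and low in score. Their width had a median of 1497 bp, and their score had a median of 0.496 and a maximum of 0.800. The 85 replicate 2 regions without a counterpart had a median width of 1557 bp. Their scores had a median of 0.462 and reached 0.661. The score is the authors' own value for a region, its scale is stated neither in the labels nor in the lists, and it serves to describe and rank regions within a list. Whether both lists share a scale was not checked, and the ranking by mean score and the differences between lists treat them as if they did. In each list, every region above the median score of the arm had a counterpart, against 74.2% of regions up to the lower quartile in replicate 1 and 58.2% in replicate 2. Many of the unmatched regions lay close to a region of the other list. The nearest one was within 5 kb for 34 of the 60 (56.7%) and for 50 of the 85 (58.8%).

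At the edge of the rule, overlap was summed over all replicate 2 regions that a shared region overlapped, which were 2 for 20 of the shared regions. For those 20 the overlap with the counterpart alone can be much smaller. The smallest summed overlap was 389 bp, for the region from 6334400 to 6335719, which was 1320 bp wide with a score of 0.521. The next smallest were 850 bp and 993 bp. Just outside the rule, the region from 6795681 to 6797228, with a score of 0.598, lay 11 bp from the nearest replicate 2 region. The next nearest were 86 bp and 159 bp away.

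Where a shared region had a single counterpart that overlapped no other, which held for 605 of the 682 (88.7%), its edges were close in the 2 lists. The median distance was 104 bp between the starts and 111 bp between the ends, and both edges lay within 500 bp for 484 regions (80.0%). The median width was 2819 bp in replicate 1 and 2956 bp in replicate 2, and 65.8% were wider in replicate 2. The order of the regions was much alike in both lists, with a Spearman rank correlation of 0.901 for width and 0.954 for score over the 605 pairs. These are correlations across regions, which share the same 2 libraries and the same peak caller and are not independent replicates.

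**Figure D1:**
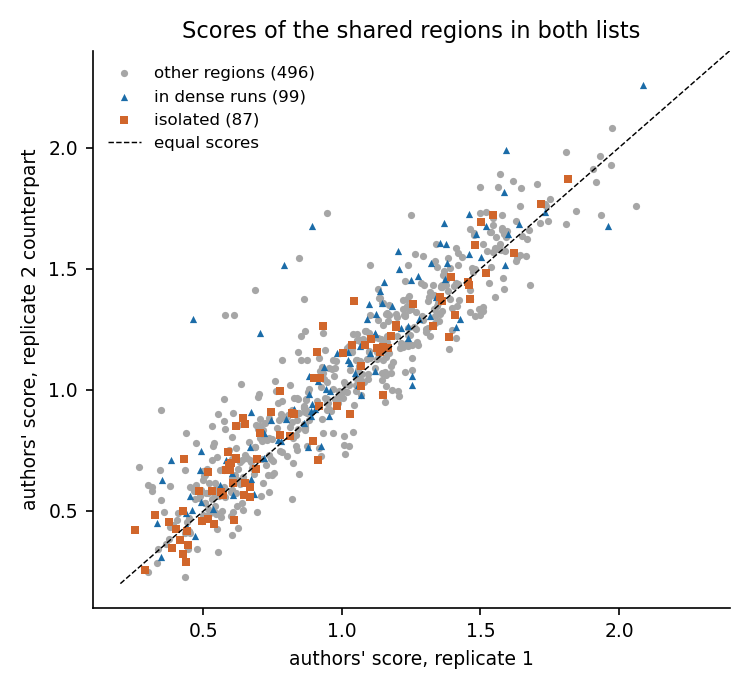
Score of each 2L region in replicate 1 (horizontal axis) against the score of its counterpart in replicate 2 (vertical axis), both in the authors' score units. Symbols separate regions in dense runs, isolated regions and the others, and the dashed line marks equal scores. The points follow 1 band with a rank correlation of 0.925 over all 682 regions, and 12 of them stand far above it.

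All of those 12 shared their replicate 2 counterpart with another replicate 1 region, as 61 regions did in all. Among the 605 single pairs the largest differences, chosen after their values were seen, were smaller. At 20448045 to 20452031 the score was 2.06 in replicate 1 against 1.76 for the counterpart. At 16268706 to 16270505 it was 0.266 against 0.683.

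Regions were spread over the length of 2L but unevenly. The first shared region began at 17265, and the last ended at 22968982, 42.6 kb before the end of the 23.0 Mb arm sequence. In replicate 1 all regions covered 10.8% of the arm and in replicate 2 they covered 11.5%, a mean of 11.2% ± 0.49 (SD, n = 2). In 46 windows of 500 kb the number of shared regions ran from 0 to 43, with a median of 14. The 10 windows with the most held 253 regions (37.1%), and the 10 with the fewest held 60 (8.80%). The covered share of the windows had a rank correlation of 0.984 between the lists, and 39 of the 46 windows were more covered in replicate 2.

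**Figure D2:**
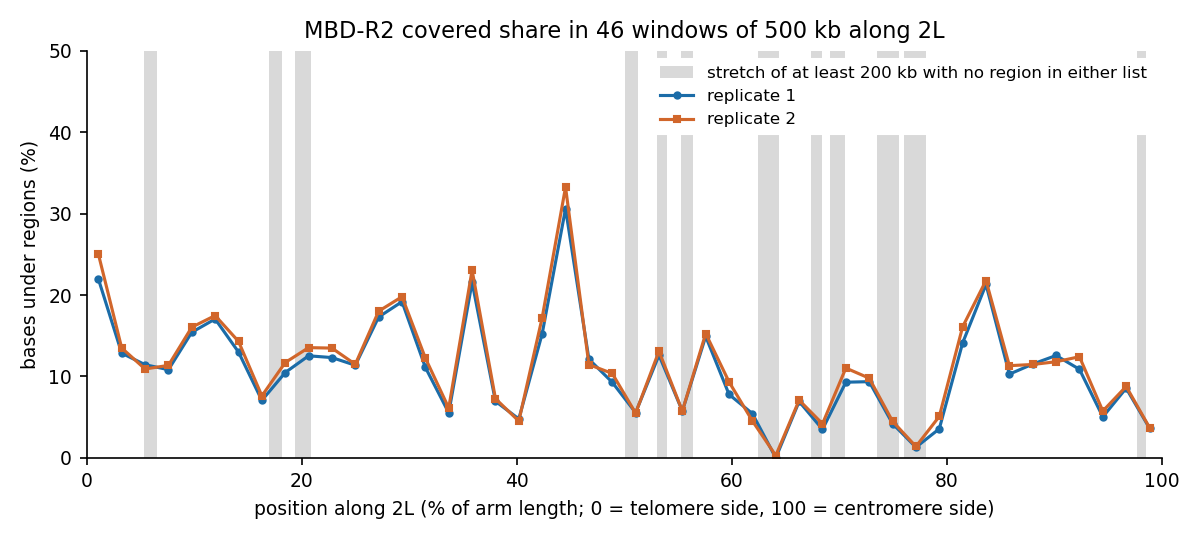
Share of bases under regions (%) in each of the 46 windows of 500 kb, plotted by position along 2L in percent of arm length from the telomere side, for replicate 1 and replicate 2, with grey bands for stretches of at least 200 kb that hold no region in either list. Both lists peak in the window from 10.0 to 10.5 Mb, at 30.6% and 33.3%, and most grey bands lie past the middle of the arm.

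The most covered window ran from 10000001 to 10500000, with 30.6% of its bases under regions in replicate 1 and 33.3% in replicate 2 (31.9% ± 1.87, SD, n = 2). It held 43 shared regions. The window at the telomere end, from 1 to 500000, was next, with 22.0% in replicate 1 and a mean of 23.5% ± 2.16 (SD, n = 2) and 35 shared regions. The window from 8000001 to 8500000 followed with 21.6% and 23.1% (22.3% ± 1.06) and 28 shared regions. The order of the last 2 rests on a gap that is smaller than the spread of the telomere window between the lists.

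The least covered window, from 14500001 to 15000000, held no shared region. Its covered share was 0% in replicate 1 and 0.283% in replicate 2. The window from 17500001 to 18000000 held 3 shared regions and was covered at 1.35% ± 0.066, and the window from 22500001 to 23000000 held 8 at 3.68% ± 0.057 (SD, n = 2).

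With boundaries at 11, 18 and 22 Mb, chosen after the values were seen, the arm fell into 4 sections. The first 11 Mb held 403 shared regions (59.1%), or 36.6 per Mb, and was covered at 14.1% ± 0.60 (SD, n = 2). From 11 to 18 Mb there were 133 regions, 19.0 per Mb, and the covered share was 7.07% ± 0.31. From 18 to 22 Mb the density was higher again, with 121 regions and 11.6% ± 0.57. In the sparse section the median score was 1.06 in replicate 1, against 1.02 in the first 11 Mb and 0.987 from 18 to 22 Mb. The counterparts had medians of 1.07 in both the sparse section and the first 11 Mb, and 1.04 from 18 to 22 Mb.

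The last section, from 22 Mb to the centromere-side end, differed in another way. It held 25 regions, 24.7 per Mb, which is more than the sparse section, but only 6.10% ± 0.10 (SD, n = 2) of it was covered. Its regions were narrow, with a median width of 2144 bp and 2349 bp for their replicate 2 counterparts. They were also low in score, with a median of 0.686 in replicate 1 and 0.763 in replicate 2. None scored above 1.21, and none lay in a dense run as defined for the next results.

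Gaps between neighbouring regions varied widely in length. Over the 681 gaps the shortest was 4 bp, the median 6.88 kb and the longest 640 kb. Of these gaps, 291 (42.7%) were at most 5 kb and 389 (57.1%) at most 10 kb. At the other end, the 60 gaps of at least 100 kb took up 48.0% of the arm. The median gap between the matching replicate 2 regions was 7.00 kb. With the higher-scoring 50% of each list alone the median gap was 16.9 kb.

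**Figure D3:**
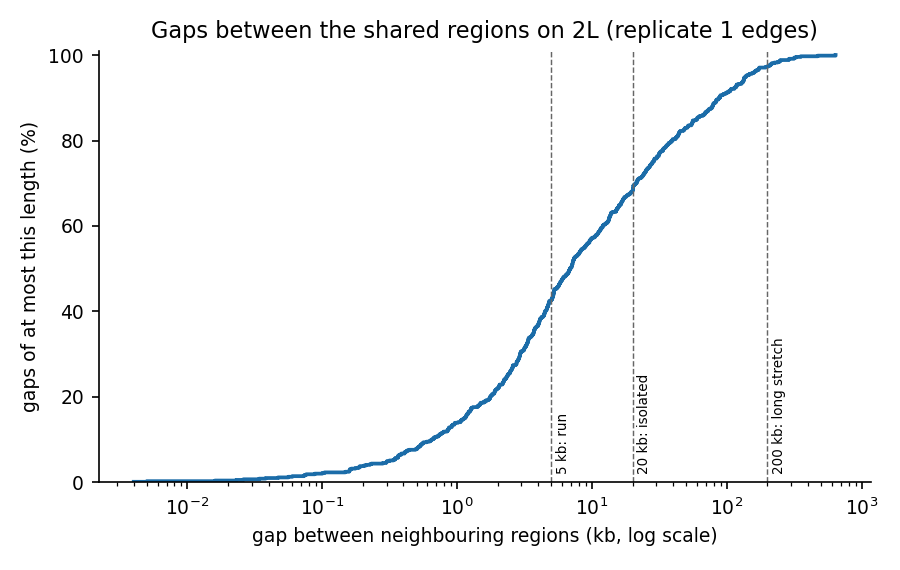
Cumulative share of the 681 gaps between neighbouring shared regions on 2L (vertical axis, %) by gap length (horizontal axis, kb, log scale), with dashed lines at 5, 20 and 200 kb. The curve rises without a step at any of the 3 lengths, from 42.7% of gaps at 5 kb.

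Some of the shortest gaps were present in 1 list and absent in the other. Of the 53 gaps of at most 500 bp, 26 were bridged by a single replicate 2 region, as were 4 of 42 gaps from 0.5 to 1 kb and 2 of 55 from 1 to 2 kb. No longer gap was bridged. The count of regions in a crowded stretch therefore depends in part on where each list splits a region.

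A dense run was taken as at least 5 shared regions in a row with gaps of at most 5 kb. There were 16 dense runs with 99 regions (14.5%) on 2.29% of the arm, and each spanned 18.7 to 53.7 kb. The number of regions in runs followed the gap allowed, with 42 at 3 kb and 223 at 10 kb, and was 15 when only the higher-scoring 50% of each list was used. Most runs were short: 5 held 5 regions, 7 held 6 and 3 held 7. By their own positions, the matching replicate 2 regions formed 19 runs with 118 regions (17.6%), with at most 10 in a run.

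The run with the most regions, 11, ran from 10291241 to 10344103 and spanned 52.9 kb. Its regions covered 59.7% of it in replicate 1 and 66.3% in replicate 2, and replicate 2 had 10 regions there. The replicate 1 scores in this run went from 0.331 to 1.25 with a median of 0.880, against 0.984 for all shared regions. None was above the upper quartile of all shared regions, 1.27. A run of 7 regions from 19002602 to 19056306 spanned 53.7 kb, was covered at 79.8% and 74.7%, and had a median score of 1.32. A run of 7 from 10394903 to 10440329 was covered at 71.8% and 74.3%, with a median score of 1.02.

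The run of 7 from 1141762 to 1186994 was covered at 75.7% in replicate 1 and 70.5% in replicate 2. The next shared region lay 314 kb further on, with a single-list region in between. The run of 6 from 18676061 to 18710908, the longest in span of 7 runs with 6 regions, covered at 74.7% and 75.4%, held the highest-scoring region of the arm. In these 5 runs, replicate 1 and replicate 2 ranged from 59.7% to 79.8% covered, against 10.8% and 11.5% of the whole arm. Because a run is defined by short gaps, a covered share above that of the arm follows from the definition.

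Runs themselves lay close together at 1 place, picked out after the values were seen. From 10245827 to 10440329, 195 kb held 4 runs and 30 shared regions, which is 4.40% of the regions on 0.845% of the arm. It was covered at 55.8% in replicate 1 and 60.5% in replicate 2 (58.2% ± 3.3, SD, n = 2), and its longest gap was 11.7 kb. The regions were near the middle of the arm in score, and none was among the highest. The median score was 1.02, close to the 0.984 of all shared regions, and 151 regions elsewhere on 2L scored above the highest of the 30.

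Stretches of at least 200 kb with no region in either list were the opposite extreme. There were 13, adding up to 3.79 Mb or 16.5% of the arm. Their number follows the length required, with 51 stretches (39.1% of the arm) from 100 kb and 4 (6.82%) from 300 kb. In the higher-scoring 50% of each list they made up 39.5% of the arm, and in the authors' combined list 6.69%. Of the 13, 10 lay in the centromere-side part of the arm past its midpoint, and 9 lay between 11 and 18 Mb, where they took up 38.5% of the sequence. The limits of 11 and 18 Mb were chosen after the values were seen, so the 9 follow in part from that choice.

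The longest stretch, from 16911144 to 17383005, spanned 472 kb and held no region of the combined list either. The next, from 14364436 to 14819304, spanned 455 kb and held 8 small regions of the combined list. A single replicate 2 region followed it, and the gap between shared regions there was the longest on the arm, 640 kb. The stretch from 4467110 to 4793727 spanned 327 kb and began at the edge of a shared region 16.0 kb wide, 1 of the 5 widest on the arm. Stretches from 15913600 to 16230296 and from 3897180 to 4186416 spanned 317 kb and 289 kb.

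The nearest shared regions on either side of these stretches, some of them set apart from the stretch by a region of 1 list, numbered 25. They had a median score of 0.981 in replicate 1 and 0.932 in replicate 2, and the other 657 had 0.987 and 1.05. Their median width was 2493 bp against 2877 bp. Among the 25, 10 had no shared region within 20 kb on either side and 1 lay in a dense run, against 77 and 98 of the other 657. The choice of the 25 already sets the neighbour on at least 1 side more than 20 kb away, so these counts follow in part from it.

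Isolated regions, those with no other shared region within 20 kb, numbered 87 (12.8%) in replicate 1, and 85 of the replicate 2 counterparts (12.7%) were isolated by their own positions. They were narrower and scored lower than regions in runs. The median width was 2950 bp in runs and 2380 bp in isolation in replicate 1, and 3217 bp and 2494 bp in replicate 2, so that the difference was 646 bp ± 108 (SD, n = 2). The median score was 1.02 in runs and 0.812 in isolation in replicate 1, and 1.06 and 0.899 in replicate 2, differences of 0.209 and 0.163. Regions in neither class were close to those in runs, with median widths of 2931 and 3122 bp and median scores of 1.01 and 1.05 in the 2 lists. No test was made over the 2 lists, and the difference in score in replicate 1 was 0.0543 when only the higher-scoring 50% of each list was used.

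The 2 groups overlapped widely. The quartiles of the score were 0.585 and 1.15 for isolated regions and 0.718 and 1.26 for regions in runs, and 32 of the 87 isolated regions (36.8%) scored above the median of the runs. Among the 40 shared regions at least 7 kb wide, 9 lay in runs, 31 lay in neither class, and none was isolated. The shares of all shared regions in these classes were 14.5%, 72.7% and 12.8%. In replicate 2, 1 of the regions this wide was isolated. The number of isolated regions was 137 with a distance of 10 kb and 31 with a distance of 50 kb.

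Median scores were lowest for the regions farthest from a shared neighbour. In replicate 1 the median was 0.992 at up to 1 kb (n = 176), 1.04 from 1 to 5 kb (n = 269), 0.962 from 5 to 20 kb (n = 150), 0.855 from 20 to 50 kb (n = 56) and 0.775 beyond 50 kb (n = 31). In replicate 2 the medians were 1.10, 1.02, 0.981, 0.932 and 0.749 over the same distances. Both lists were lowest beyond 50 kb, and the first 2 bins stood in opposite order in the 2 lists. Over 681 adjacent pairs the rank correlation of the 2 neighbours' scores was 0.0725 in replicate 1. For the counterparts it was 0.119 over all pairs. Among the 95 pairs up to 1 kb apart it was 0.360 for the counterparts and 0.108 in replicate 1. Of the 681 gaps, 32 are bridged by 1 replicate 2 region, so that such a pair can share its counterpart. Most of the 32 lie among these close pairs, with 26 of 53 gaps up to 500 bp and 4 of 42 from 500 to 1000 bp. The correlation without the bridged pairs was not tested.

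**Figure D4:**
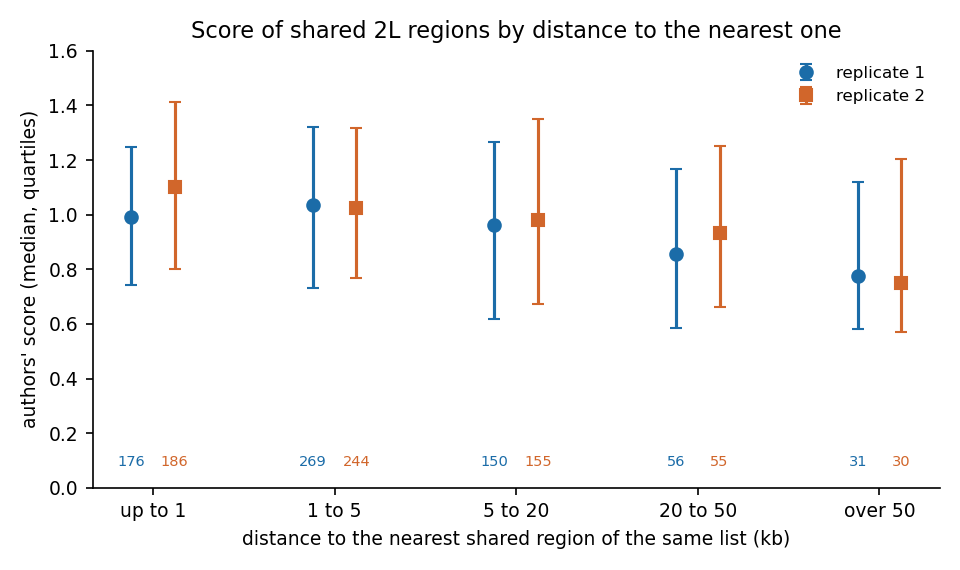
Median score of 2L regions with bars from the lower to the upper quartile (vertical axis, authors' score units) by distance to the nearest other shared region (horizontal axis, kb), for replicate 1 and replicate 2, with the number of regions under each. Medians run from 0.992 at up to 1 kb to 0.775 beyond 50 kb in replicate 1, and from 1.10 to 0.749 in replicate 2.

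The 5 regions farthest from a neighbour were of middling or low score. The region from 15498228 to 15500584 had no shared region within 225 kb on either side, and scored 0.894 in replicate 1 and 0.787 in replicate 2. The region from 17750488 to 17752541, alone over 210 kb on its nearer side, scored 0.668 and 0.599. The region from 15910643 to 15913431, 139 kb from its neighbour, scored 0.703 and 0.820. The region from 18293671 to 18295081, at 134 kb, scored 0.324 and 0.485, and the region from 14023362 to 14025500, at 116 kb, scored 0.570 and 0.565. Other isolated regions scored high, and 16 of the 87 (18.4%) lay above the upper quartile of all shared regions.

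Most shared regions were narrow. In replicate 1 the widths ran from 1309 bp to 26.9 kb with a median of 2846 bp, and the quartiles were 2203 and 3882 bp. The counterparts in replicate 2 had a median of 3083 bp (2964 bp ± 168, SD, n = 2). Regions narrower than 3 kb made up 53.7% of the regions and 34.1% of their bases. The 40 regions at least 7 kb wide were 5.87% of the regions and 17.3% of the bases.

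Width and score rose together over the regions below 4 kb taken as a whole, and much less from 4 kb up. The rank correlation across regions was 0.723 for all 682 in replicate 1 and 0.661 for the 670 in replicate 2. Below 4 kb it was 0.753 (n = 516), and from 4 kb up it was 0.249 (n = 166), with 0.705 and 0.198 in replicate 2. Among regions narrower than 2 kb alone, the rank correlation was 0.107 in replicate 1 and 0.158 in replicate 2. From 2 to 2.2 kb it was 0.552 and 0.628, and from 2.2 to 2.5 kb it was 0.425 and 0.378. From 2.5 to 3 kb it was 0.250 and 0.256. A change stood near 2 kb. The 102 regions narrower than 2 kb had no score above 0.705, and the 61 of that width in replicate 2 none above 0.708. From 2 to 2.2 kb scores already reached 1.45 in replicate 1 and 1.51 in replicate 2.

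**Figure D5:**
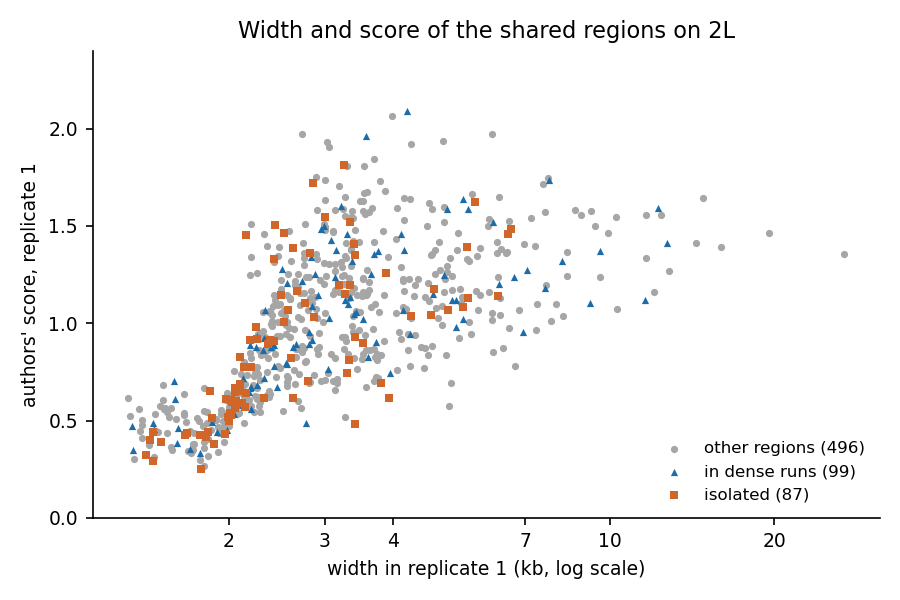
Score (vertical axis, authors' score units) against width (horizontal axis, kb, log scale) of the shared 2L regions in replicate 1, with symbols for regions in dense runs, isolated regions and the others. Below 2 kb no point exceeds 0.705, and the highest scores lie among regions of intermediate width.

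The 5 widest regions scored above the median of all shared regions but did not have the highest scores. From the widest down, they stood at positions 133, 90, 115, 29 and 106 of 682 in the order of replicate 1 scores. The widest, from 11986617 to 12013490, spanned 26.9 kb, or 27.0 kb in replicate 2, and scored 1.36 and 1.43. The region from 4963466 to 4983076 was 19.6 kb and 19.1 kb wide, with scores of 1.46 and 1.66. The region from 4450811 to 4466810, which bounds an empty stretch, was 16.0 kb and 16.4 kb wide, with a score of 1.39 in replicate 1.

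The region from 6955029 to 6969823 was 14.8 kb wide in replicate 1 and was split into 2 regions in replicate 2, of which the higher-scoring was 7.98 kb, and it scored 1.64 and 1.76. The region from 19574149 to 19588540 was 14.4 kb and 14.5 kb wide, with scores of 1.41 and 1.44, and the next region lay 146 kb away on the centromere side.

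The 10 regions with the highest mean score were 2.73 to 6.09 kb wide in replicate 1. The highest, from 18687064 to 18691305, was 4242 bp wide, with a score of 2.09 and of 2.26 for its counterpart. The second, from 18589715 to 18592442, was 2728 bp wide, scored 1.97 and 2.08, and had a gap of 134 kb on its telomere side. Regions from 19506964 to 19509991 (1.93 and 1.97), from 1977841 to 1983925 (1.97 and 1.93) and from 20448045 to 20452031 (2.06 and 1.76) followed.

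The other 5 scored between 1.72 and 1.98 in the 2 lists. They ran from 16256291 to 16259343, from 13002563 to 13005856, from 8363130 to 8367438, from 20348514 to 20351769 and from 818055 to 823002. The region at 20348514 was isolated, with gaps of 134 kb and 62.6 kb, and had scores of 1.82 and 1.87. Of the 10, 1 lay in a dense run, 1 was isolated and 8 lay in neither class, where the shares of all shared regions were 14.5%, 12.8% and 72.7%.

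The values of 2L are set beside those of 3 other arms, 3L, 3R and X, with no test of the differences, and the remaining arms were not compared here. There were 29.6 shared regions per Mb on 2L, 30.6 on 3L, 33.8 on 3R and 34.9 on X. The median score was 0.984 on 2L, 0.994 on 3L, 1.05 on 3R and 1.09 on X, and the median width was 2846, 2885, 3034 and 3120 bp in the same order. Dense runs held 99 of the 682 shared regions on 2L, 70 of 752 on 3L, 113 of 942 on 3R and 156 of 783 on X. Isolated regions made up 12.8% on 2L, 12.1% on 3L, 11.4% on 3R and 7.28% on X. Empty stretches took up 16.5% of 2L, 11.2% of 3L, 9.07% of 3R and 14.2% of X.

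The authors' combined list, made by steps that the labels do not describe, held 1067 regions on 2L that covered 15.1% of the arm. All 682 shared regions overlapped it. Of its regions, 618 (57.9%) overlapped a region of both replicates and held 80.7% of its bases. A further 130 (12.2%) overlapped a region of 1 replicate, and 319 (29.9%) overlapped none. Those 319 were small, with medians of 1257 bp in width and 0.368 in score, against 3635 bp and 0.941 for the 618. Of the 319, 181 were narrower than any region of the replicate lists on 2L, where the narrowest was 1302 bp.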

How the data were processed

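Enriched regions of 2 MBD-R2 ChIP samples of Oregon-R embryos were compared along chromosome arm 2L. The submitters' processing notes name the aligner Bowtie 0.12.7. The deposited lists give, per the file headers, FlyBase release 5 coordinates and a score per region, which is the authors' value. Its scale, the peak caller, its threshold, the use of the inputs and the making of the combined list are not stated in the labels or headers. The authors' processing sets where regions begin, end and split, and so their number and gaps.

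Lists were read and compared with pandas 2.3.3, SciPy 1.17.1 and NumPy 2.4.6 under Python 3.11.15, and drawn with Matplotlib 3.10.9. A counterpart is the replicate 2 region with the highest score among those that overlap. Gaps, runs (at least 5 regions, gaps of at most 5 kb), isolation (20 kb) and empty stretches (200 kb, neither list) were measured from region edges. The steps for runs, isolation, overlaps, covered bases and empty stretches were tested on simulated data with known answers, and 7 of 7 quantities were recovered. Simulated gaps were not placed close to the 5 kb and 20 kb limits. Choice of counterpart, correlations, bridged gaps and windows were not part of that test. Shares have 95% Wilson intervals, for counting error only.

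Regions named one by one are the 10 with the highest mean score, the 5 widest, the 5 farthest from a neighbour, the 5 runs with the most regions (ties by span), the 5 longest empty stretches, and the 3 most and 3 least covered windows of 500 kb. Others were chosen after their values were seen, as stated there. The regions, rules and lists were chosen with earlier results of these data known. With 2 lists no test was made. Genes were not analysed here, since the gene table at hand is of release 6. Alternatives changed the overlap, the score limit, the list taken as reference, the gap, isolation and stretch lengths, and the list of regions.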

Additional observations from a re-analysis of the deposited data

Results flagged for a closer look

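The combined list was used in no comparison between the replicates, and it listed regions where neither replicate did. Inside the 13 stretches of at least 200 kb with no region of either replicate, it listed 23 regions. They were 1001 to 1871 bp wide, with scores from 0.0369 to 0.703, and covered 0.790% of those stretches.

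Along the whole arm, 319 regions of the combined list on 2L overlapped no region of either replicate, and the highest score among them was 2.03. That score belonged to the region from 22232974 to 22234068, 1095 bp wide, and to the region from 21458312 to 21459312, 1001 bp wide, which had the highest scores of the combined list on the arm. Only 4 of the 319 scored at least 1. The narrowest region of either replicate list on 2L was 1302 bp wide, and 181 of the 319 were narrower than that, both top-scoring ones among them. In the replicate lists no shared region narrower than 2 kb scored above 0.708. Whether the combined list scores regions on the same scale as the replicate lists was not checked.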

How the results depend on the processing

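Over 68 alternative values of 11 results, 29 stayed within the spread between the lists or, for counts, near the count reported, and 39 did not. Some of these outcomes were set by arithmetic. With 2 lists the SD is smaller than their difference and larger than the distance of each list from their mean. Values other than counts with replicate 2 as the reference therefore fell outside it, and the covered share of a single list fell within it. The differences between runs and isolated regions kept their sign in all of them. With a 50% overlap, or the longest-overlap counterpart, the rank correlation of scores was 0.928. With the higher-scoring 50% of each list, 95.6% of replicate 1 regions were found again, the median width was 3534 bp, the median score 1.26, the median gap 16.9 kb, 15 regions lay in runs, the differences between runs and isolated regions were 807 bp and 0.0543, the rank correlation was 0.839, the covered share 7.35% and the empty share 39.5%. With replicate 2 regions as the reference, the values were 88.7%, 3083 bp, 1.03, 7.00 kb, 723 bp and 0.163. Leaving out 1 list gave an empty share of 19.4 to 19.6%. The combined list gave a covered share of 15.1% and an empty share of 6.69%. Run gaps of 3 and 10 kb put 42 and 223 regions in runs, with width differences of 425 and 779 bp. Isolation distances of 10 and 50 kb gave 137 and 31 isolated regions, and at 50 kb the differences were 763 bp and 0.246. Stretch lengths of 100 and 300 kb gave 39.1% and 6.82%. In each case the alternative takes other regions or another length by construction, and no further cause was tested.

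Of 3 alternatives chosen after seeing the data, joining regions that a replicate 2 region bridges gave a width of 3260 bp, a gap of 7.20 kb and differences of 731 bp and 0.176. Counting all replicate 1 regions as neighbours gave differences of 706 bp and 0.247. Leaving out the last Mb gave a gap of 6.80 kb.

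No paired analysis was possible because the inputs have no list here and no test was made. Leaving out 1 replicate was possible for the covered share and the empty stretches, since a shared region needs both lists. Read depth is unknown, so an empty stretch says that no region was called there, not that MBD-R2 was absent.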
